A study of Vitis vinifera with 15 samples.

Results

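Thaumatin-like proteins form family 5 of the plant pathogenesis-related (PR) proteins, small secreted or vacuolar proteins that accumulate around infection sites, and many of them damage the membranes of fungi. Osmotins are members of the same family, first known from tobacco cells adapted to salt. In grapevine, thaumatin-like proteins are best known from the berry, where they build up during ripening and later form haze in white wine. In leaves, genes of this family are usually read as part of the defence response, together with chitinases and beta-1,3-glucanases, which degrade fungal cell walls.

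Among the 29970 genes of the deposited expression values, 10 were listed as thaumatin and osmotin genes. Of these, 8 carry identifiers of chromosome 2, between Vv02s0025g04230 and Vv02s0025g04340, and 2 carry identifiers of chromosome 4, Vv04s0023g03540 and Vv04s0023g03550. The list was drawn up with the expression of these genes in these libraries known, and 8 of the 10 are in a table that the study selected for large differences from GAG-1103P in these same libraries. Levels, differences and calls of the listed genes are therefore given as a description, without p-values, and nothing is supported with them. In the annotation of the study, Vv02s0025g04230, Vv02s0025g04300, Vv02s0025g04310 and Vv04s0023g03550 are thaumatins, Vv02s0025g04330 is the thaumatin VVTL1, Vv04s0023g03540 is the thaumatin SCUTL1, and Vv02s0025g04250 and Vv02s0025g04280 are osmotins. The sources used here give no annotation for Vv02s0025g04290 and Vv02s0025g04340, which are described by identifier only.

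RNA was taken from non-senescing leaves of one clone of the Vitis vinifera variety "Gaglioppo" (GAG) grafted on 5 rootstocks, with 3 libraries for each graft combination (A, B and C), each a pool of leaves from several plants. The rootstocks were 1103 Paulsen (GAG-1103P) and 17-37Mgt (GAG-17-37), both V. rupestris × V. berlandieri, Kober 5BB (GAG-KOB), V. riparia × V. berlandieri, 3309 Couderc (GAG-3309C), V. riparia × V. rupestris, and 41B (GAG-41B), V. vinifera × V. berlandieri. All vines grew in the same irrigated vineyard, were sampled in 1 season, and no treatment is named for them. Since each combination stood in its own block of the vineyard, rootstock and block cannot be told apart. GAG-1103P was the reference combination of the study, and its 3 libraries enter each comparison with it, so that these comparisons are not independent of each other.

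Expression was measured as FPKM (fragments per kilobase of transcript, scaled to the mapped fragments), a level per gene length that can be compared between genes. These values carry no read counts, so that the number of reads behind each value is unknown. Precision was read from the spread of the 3 libraries. The study lists the mapped reads of each library, which were fewest in library C of GAG-17-37. Between 21130 and 21578 genes were above 0 in a library, and the FPKM of a library summed to between 2208240 and 2221125 in the 3 libraries of GAG-41B but to between 1558965 and 1797627 in the other 12. Scaling all libraries to the same total shifted the median log2 difference of all genes tested between GAG-41B and GAG-1103P from 0.00 to -0.38. Of the leaf markers, PsbO of photosystem II was at 939 to 1727 FPKM and PSAF of photosystem I at 355 to 1017 FPKM, while 2 genes annotated as LHCB3, a light-harvesting protein, were between 0 and 3.12 FPKM. In GAG-41B 3 of 4 were called higher compared with GAG-1103P (median log2 difference 1.97), with 34.4% of all genes called higher. The 2 low LHCB3 genes differed by 3.36 and 3.18, PSAF by 0.76 and PsbO by -0.10, the last not called. All 4 markers were called higher compared with GAG-3309C (2.13), GAG-17-37 (1.73) and GAG-KOB (1.37). Of all genes, 31.7%, 31.1% and 27.6% were called higher in these comparisons. The summed level of the 4 markers was 2405 to 2636 FPKM in GAG-41B and 2156 to 2317 in GAG-1103P. It was 1784 to 2020.5 in GAG-17-37, 1641 to 1852 in GAG-KOB and 1299 to 1364 in GAG-3309C. The part of these differences in those of the listed genes was not tested. In whole leaves, fewer cells of a type and less RNA per cell cannot be told apart.

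Among the thaumatins, Vv02s0025g04310 had the highest level of all listed genes in each combination. Its FPKM in libraries A, B and C was 278, 303 and 274 in GAG-1103P. It was 1118, 1168 and 1103 in GAG-17-37, 1296, 1221 and 1293 in GAG-41B, 1578, 1682 and 1621 in GAG-KOB and 2101, 2120.4 and 2015 in GAG-3309C. The ranges of all 5 combinations were apart, with GAG-3309C at the top and GAG-1103P at the bottom. Compared with GAG-1103P, the mean level was 3.96-fold in GAG-17-37, 4.46-fold in GAG-41B, 5.71-fold in GAG-KOB and 7.30-fold in GAG-3309C. By mean FPKM this gene ranked 60 among 29970 genes in GAG-3309C, 91 in GAG-KOB, 122 in GAG-17-37, 208 in GAG-41B and 914 in GAG-1103P. The small step from GAG-17-37 to GAG-41B, a log2 difference of 0.17 (SE 0.05), turned to -0.30 with the libraries scaled to the same total and to -0.46 after quantile normalization.

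**Figure D1:**
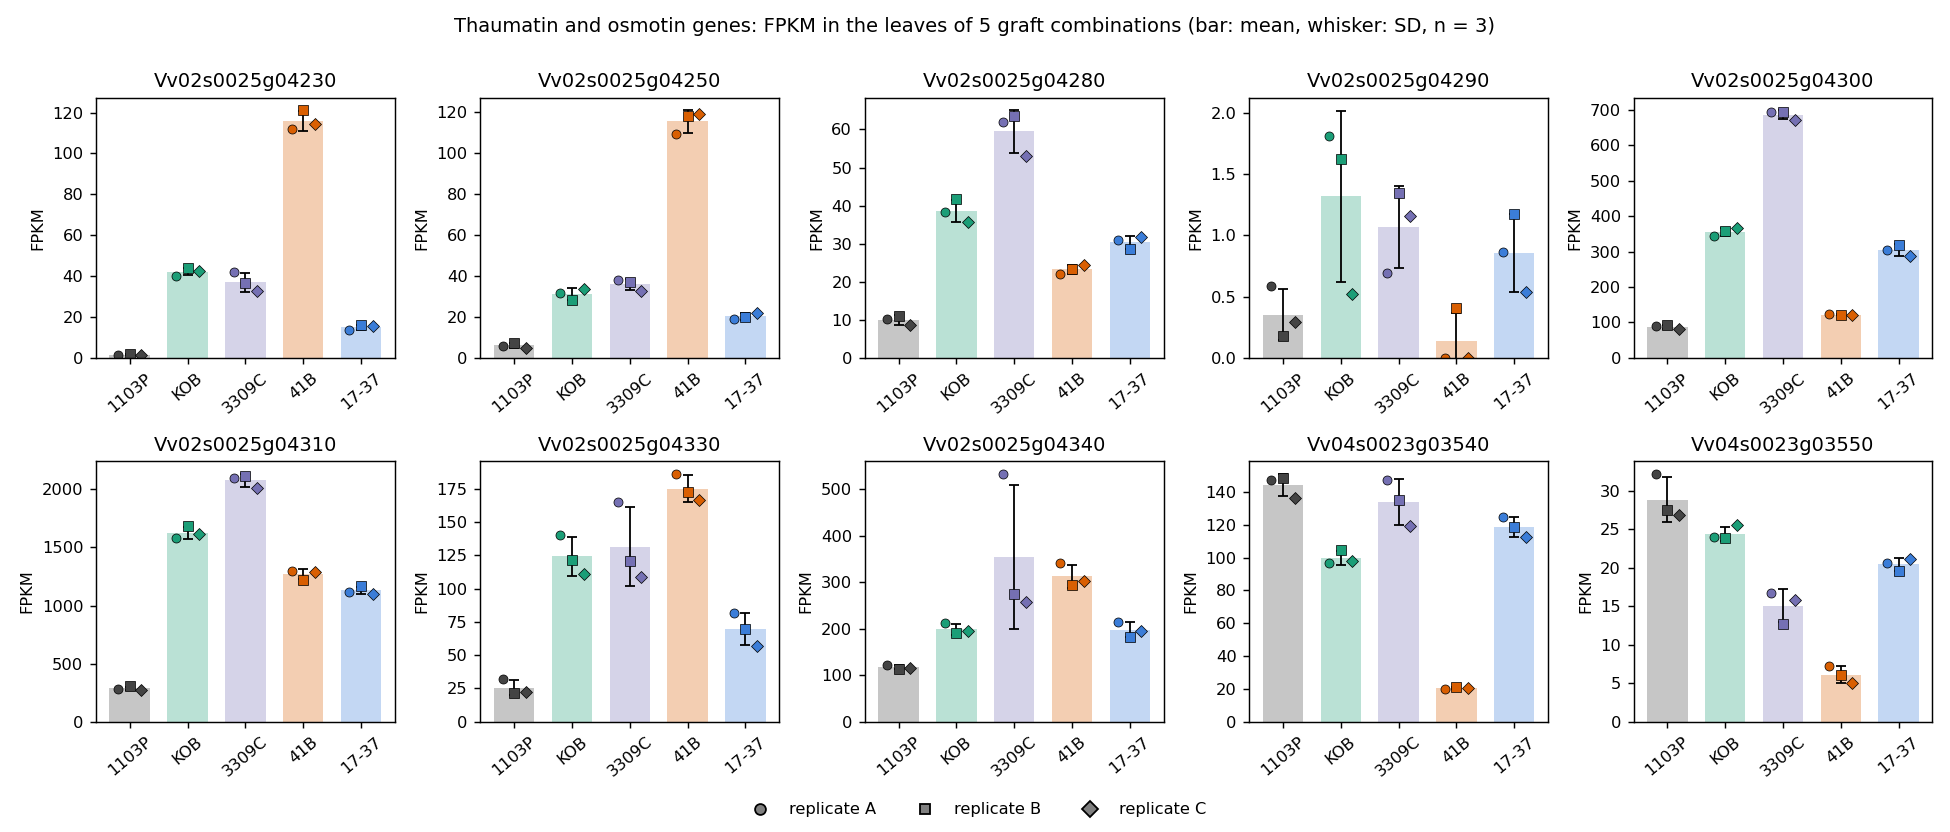
FPKM of the 10 listed genes (one panel each, linear axes from 0, different scales) in the 5 graft combinations, with points for libraries A (circle), B (square) and C (diamond), bars for the mean and whiskers for the SD of 3 libraries. The chromosome 2 genes other than Vv02s0025g04290 are lowest in GAG-1103P, and both chromosome 4 genes are lowest in GAG-41B, at 20.3 FPKM for Vv04s0023g03540 and 6.10 FPKM for Vv04s0023g03550.

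The thaumatin Vv02s0025g04300, next to it in identifier order, followed the same order at the top but stood low in GAG-41B. Its FPKM was 89.3, 92.3 and 80.1 in GAG-1103P and 123, 121 and 122 in GAG-41B. It was 306, 319.5 and 287 in GAG-17-37, 343, 359 and 365 in GAG-KOB and 694, 695 and 672 in GAG-3309C. Again no 2 combinations overlapped. In GAG-3309C the mean was 7.87-fold that of GAG-1103P, against 1.40-fold in GAG-41B, a log2 difference of 0.49 (SE 0.06) that was 0.09 and no longer called with the libraries scaled to the same total. The level of Vv02s0025g04300 relative to Vv02s0025g04310 was 0.330 ± 0.00293 in GAG-3309C, 0.306 ± 0.0141 in GAG-1103P, 0.269 ± 0.00766 in GAG-17-37 and 0.219 ± 0.00623 in GAG-KOB but 0.0962 ± 0.00258 in GAG-41B (mean ± SD of the ratio, n = 3). Such a ratio of 2 genes within a library is the same under any scaling of whole libraries. Here and below, ratios between copies of the family depend on how shared reads were divided between them, which was not tested.

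The thaumatin Vv02s0025g04230 had the widest fold range between libraries of the listed genes apart from Vv02s0025g04290, which was at 0 in 2 libraries. In GAG-1103P its FPKM was 1.60, 1.90 and 1.16, and by mean FPKM it ranked 16478 among 29970 genes there, against 2952 in GAG-41B. It was 13.4, 15.98 and 15.4 in GAG-17-37, 41.8, 36.6 and 32.6 in GAG-3309C, 40.1, 44.0 and 42.5 in GAG-KOB and 112, 121 and 114 in GAG-41B. Only the ranges of GAG-3309C and GAG-KOB overlapped, with a log2 difference of 0.20 (SE 0.14) between them. The mean in GAG-41B was 74.5-fold that in GAG-1103P, and on the log2(FPKM + 0.1) scale of the linear model the difference was 6.15 (SE 0.14). It was 4.70 for GAG-KOB, 4.50 for GAG-3309C and 3.20 for GAG-17-37 (SE 0.14 each).

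VVTL1, Vv02s0025g04330, is named after a thaumatin-like protein that is abundant in the ripe berry. Its FPKM was 31.8, 21.8 and 22.6 in GAG-1103P and 81.6, 69.7 and 57.1 in GAG-17-37. It was 186, 173 and 167 in GAG-41B, 165, 121 and 109 in GAG-3309C, whereas GAG-KOB had 140.4, 122 and 111. GAG-1103P and GAG-17-37 were each below all libraries of the other 3 combinations, while GAG-KOB and GAG-3309C overlapped. The lead of GAG-41B over GAG-3309C was small, 0.43 on the log2 scale (SE 0.18), and kept its direction and call in only 9 of 27 alternatives. With the libraries scaled to the same total the difference was -0.047, so that the order of these 2 combinations was not settled. The lead over GAG-KOB, 0.50 (SE 0.18), lost its call in 8 of 27 alternatives, including the leaving out of any 1 library of GAG-41B or of replicate B or C of GAG-KOB, with values from 0.42 to 0.53 over these 5 libraries. Library A was the highest of the 3 in 5 of 5 combinations for this gene, by 0.14 to 0.52 on the log2 scale over the mean of B and C.

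The osmotins Vv02s0025g04250 and Vv02s0025g04280 had different orders of the combinations. The FPKM of Vv02s0025g04250 was 5.88, 7.41 and 4.74 in GAG-1103P and 18.7, 19.7 and 22.0 in GAG-17-37. It was 109, 118 and 119 in GAG-41B, 37.8, 36.9 and 32.7 in GAG-3309C, whereas GAG-KOB had 31.6, 28.0 and 33.5. The 3 libraries of GAG-41B thus stood far above the other 12, whose highest value was 37.8 FPKM, and only GAG-KOB and GAG-3309C overlapped. The mean in GAG-41B was 19.2-fold that in GAG-1103P, against 3.35-fold in GAG-17-37, 5.16-fold in GAG-KOB and 5.96-fold in GAG-3309C.

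For Vv02s0025g04280 the FPKM was 10.1, 10.99 and 8.62 in GAG-1103P and 22.1, 23.3 and 24.4 in GAG-41B. It was 30.8, 28.5 and 31.7 in GAG-17-37, 38.3, 41.6 and 35.7 in GAG-KOB and 62.0, 63.4 and 53.0 in GAG-3309C. The 5 ranges were apart, with GAG-3309C highest and GAG-41B second from the bottom. The mean of this osmotin was 5.997-fold that of GAG-1103P in GAG-3309C and 2.35-fold in GAG-41B. The ratio of Vv02s0025g04250 to Vv02s0025g04280 within a library was 0.602 ± 0.0650 in GAG-1103P, 0.603 ± 0.0181 in GAG-3309C, 0.664 ± 0.0504 in GAG-17-37 and 0.813 ± 0.133 in GAG-KOB. In GAG-41B it was 4.95 ± 0.106, so that the osmotin with the lower level in the other 12 libraries had the higher level in these 3.

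The unannotated Vv02s0025g04340 was at a high level throughout. Its FPKM was 122, 114 and 115 in GAG-1103P, 213, 190.2 and 194 in GAG-KOB and 214, 183 and 195 in GAG-17-37. It was 341, 294 and 303 in GAG-41B and 534, 274 and 258 in GAG-3309C. GAG-1103P was below all other libraries, and GAG-KOB overlapped with GAG-17-37, as GAG-3309C did with GAG-41B. Library A of GAG-3309C stood apart from B and C, and without it the log2 difference between GAG-41B and GAG-3309C went from -0.10 to 0.23. As for Vv02s0025g04330, library A was the highest of the 3 in 5 of 5 combinations, by 0.093 to 1.005 on the log2 scale over the mean of B and C. Whether these libraries differed in collection or preparation was not tested.

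The unannotated Vv02s0025g04290 was near the lower limit of the values. Its FPKM was 0.585, 0.182 and 0.292 in GAG-1103P, 0.696, 1.35 and 1.16 in GAG-3309C, whereas GAG-KOB had 1.81, 1.63 and 0.519. It was 0.861, 1.18 and 0.534 in GAG-17-37 and 0, 0.403 and 0 in GAG-41B, where it is listed at 0 in 2 libraries. All neighbouring combinations in the order of means overlapped. None of the 4 differences from GAG-1103P was called, with log2 values of -1.30, 1.12, 1.42 and 1.59 for GAG-41B, GAG-17-37, GAG-3309C and GAG-KOB (SE 0.63). The value for GAG-KOB was called in 9 of 26 alternatives, that for GAG-41B in 4 and that for GAG-3309C in 2, among them -2.08 for GAG-41B without its library B.

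The 2 chromosome 4 genes showed the opposite placement of GAG-1103P and GAG-41B. The FPKM of SCUTL1, Vv04s0023g03540, was 148, 149 and 136 in GAG-1103P and 147, 135 and 119 in GAG-3309C. It was 125, 119 and 113 in GAG-17-37, 96.8, 104 and 97.7 in GAG-KOB and 19.6, 21.0 and 20.4 in GAG-41B. GAG-41B was far below all other libraries and GAG-KOB below the remaining 9, while GAG-3309C overlapped with GAG-1103P and with GAG-17-37. The mean level was 7.10 times as high in GAG-1103P as in GAG-41B, a log2 difference of -2.82 (SE 0.07). The other 3 combinations differed from GAG-1103P by -0.53 (GAG-KOB), -0.11 (GAG-3309C, not called) and -0.28 (GAG-17-37) on this scale (SE 0.07), and without library A of GAG-3309C its difference was -0.18 and called.

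The thaumatin Vv04s0023g03550 was lower than SCUTL1 in each library. Its FPKM was 32.2, 27.5 and 26.8 in GAG-1103P, 24.0, 23.8 and 25.5 in GAG-KOB and 20.6, 19.5 and 21.2 in GAG-17-37. In GAG-3309C it was 16.7, 12.7 and 15.8, and in GAG-41B 7.18, 6.09 and 5.03. No 2 neighbouring combinations overlapped, though the steps from GAG-1103P to GAG-KOB and from there to GAG-17-37 were not called. The mean was 4.73 times as high in GAG-1103P as in GAG-41B and 1.92 times as high as in GAG-3309C. The ratio of SCUTL1 to Vv04s0023g03550 was highest in GAG-3309C, at 9.01 ± 1.57, against 3.41 ± 0.662 in GAG-41B and between 4.08 and 5.82 in the means of the other 3 combinations.

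Of the 10 listed genes, 7 were called higher and 2 lower in GAG-41B compared with the reference GAG-1103P (limma, Benjamini-Hochberg adjusted p of 0.05 or less over the 21364 genes tested), where 68.8% of all genes tested were called, 34.4% higher and 34.4% lower. The 7 were the chromosome 2 genes other than Vv02s0025g04290, and the same 7 were called higher in the other 3 comparisons with GAG-1103P. In GAG-KOB 1 gene was called lower, SCUTL1, with 52.6% of all genes called (26.9% higher, 25.7% lower). In GAG-3309C 1 gene was called lower, Vv04s0023g03550, with 43.1% of all genes called (22.0% higher, 21.1% lower). In GAG-17-37 both chromosome 4 genes were called lower, with 34.3% of all genes called (18.6% higher, 15.6% lower), but at a stricter limit of 0.005 both of these calls and that of Vv02s0025g04340 were lost, leaving 6 of 9. The median log2 difference of the 10 genes was 2.47 in GAG-3309C, 1.99 in GAG-KOB, 1.53 in GAG-17-37 and 1.32 in GAG-41B, where that of all genes tested was 0.00 in each comparison. Since the genes were listed with these contrasts known, the counts are not set against the shares.

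The order of the 4 other combinations differed between the genes. Among the 10 listed genes, 3 had their highest mean on the log2 scale in GAG-41B (Vv02s0025g04230, Vv02s0025g04250 and Vv02s0025g04330), 4 in GAG-3309C (Vv02s0025g04280, Vv02s0025g04300, Vv02s0025g04310 and Vv02s0025g04340), 1 in GAG-KOB (Vv02s0025g04290) and 2 in GAG-1103P (the chromosome 4 genes). GAG-1103P was lowest for 7 genes and GAG-41B for 3. Some of the top places were not settled. For Vv02s0025g04330 the difference of GAG-41B from GAG-3309C was -0.047 with the libraries scaled to the same total. For Vv02s0025g04340 it was 0.23 without library A of GAG-3309C. The lead of the highest over the next combination was not called for Vv02s0025g04340, Vv02s0025g04290 and both chromosome 4 genes. Of the 40 neighbouring pairs of combinations in these orders, the difference was not called in 13. The share over all genes was not computed for such pairs, so that nothing is read from this count. In the 10 comparisons, between 16.9% and 68.8% of all genes tested were called. Between GAG-41B and GAG-3309C, 3 genes were called higher and 6 lower, with 63.1% of all genes called (31.7% higher, 31.4% lower). The differences were 1.65 for Vv02s0025g04230 and 1.69 for Vv02s0025g04250, but -1.35 for Vv02s0025g04280 and -2.49 for Vv02s0025g04300 on the log2 scale, so that members of the same run of identifiers differed between these leaves in opposite directions.

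**Figure D2:**
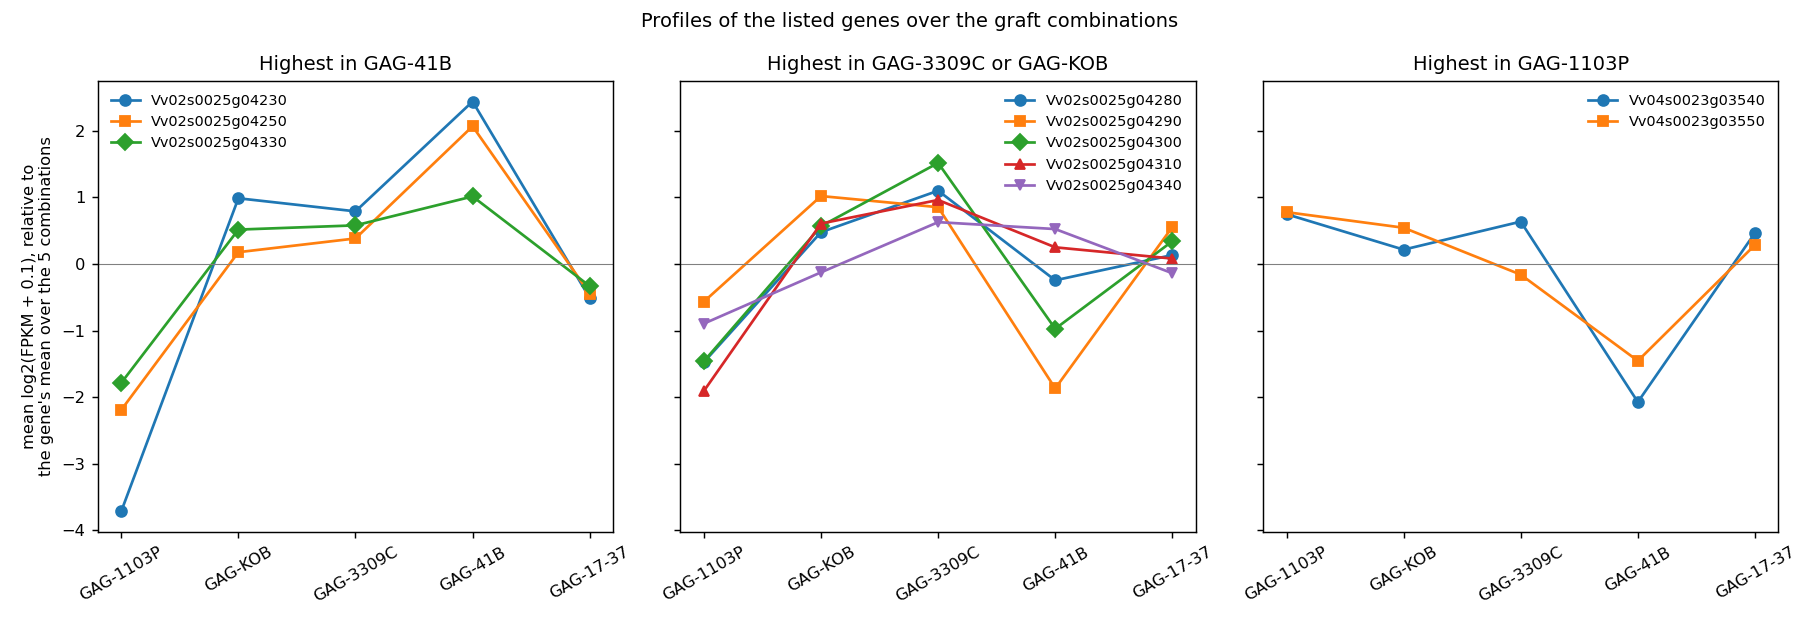
Mean log2(FPKM + 0.1) of each listed gene in the 5 graft combinations, relative to the mean of the gene over the combinations, in panels for the genes highest in GAG-41B, in GAG-3309C or GAG-KOB, and in GAG-1103P (points are means of 3 libraries, lines join them for reading only). The 3 genes of the left panel have their highest mean in GAG-41B, whereas Vv02s0025g04300 and Vv02s0025g04280 of the middle panel drop there, at -2.49 and -1.35 against GAG-3309C. The order of GAG-41B and GAG-3309C was not settled for Vv02s0025g04330 (left) and Vv02s0025g04340 (middle).

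Against GAG-KOB, 4 genes were called higher in GAG-41B and 6 lower, with 53.2% of all genes called (27.6% higher, 25.6% lower). Against GAG-17-37, 5 were called higher and 5 lower, with 62.5% of all genes called (31.1% higher, 31.3% lower). GAG-3309C exceeded GAG-17-37 in 7 called genes and was below it in 1, with 16.9% of all genes called (7.37% higher, 9.53% lower), and the called increases were from 0.77 (Vv02s0025g04340) to 1.30 (Vv02s0025g04230) on the log2 scale. GAG-KOB exceeded GAG-17-37 in 6 called genes and was below it in 1, with 33.3% of all genes called (17.4% higher, 15.9% lower). Between GAG-KOB and GAG-3309C, 1 gene was called higher in GAG-KOB and 5 lower, with 34.9% of all genes called (18.7% higher, 16.2% lower), and the largest of these differences was -0.95 for Vv02s0025g04300. With 1 library left out, calls were lost for Vv02s0025g04340 between GAG-41B and GAG-KOB (0.59 without library A of GAG-41B), for Vv02s0025g04280 and Vv04s0023g03540 between GAG-KOB and GAG-17-37 (0.29 without library B of GAG-KOB and 0.30 without library B of GAG-17-37 for the osmotin, -0.24 to -0.22 without library A or C of GAG-KOB or A of GAG-17-37 for SCUTL1). Between GAG-3309C and GAG-17-37 they were lost for Vv02s0025g04340 (0.71 and 0.76 without library B or C of GAG-17-37) and Vv04s0023g03550 (-0.48 to -0.33 without library B of GAG-3309C or any 1 of GAG-17-37).

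Summed over the 8 chromosome 2 genes, the level was 532 ± 23.6 FPKM in GAG-1103P, 1767 ± 48.7 in GAG-17-37, 2134 ± 59.7 in GAG-41B, 2419 ± 42.8 in GAG-KOB and 3386 ± 234 in GAG-3309C (mean ± SD, n = 3). With the libraries scaled to the same total, GAG-41B (1703 FPKM) came below GAG-17-37 (1957 FPKM). The thaumatin Vv02s0025g04310 made up between 53.6% (GAG-1103P) and 67.2% (GAG-KOB) of the sum on average. In GAG-1103P, Vv02s0025g04340 held 21.9 ± 1.16% of the sum, against 8.23 ± 0.617% in GAG-KOB. In GAG-41B, Vv02s0025g04230 held 5.43 ± 0.383% and Vv02s0025g04250 5.41 ± 0.383%, against 0.291 ± 0.0577% and 1.12 ± 0.206% in GAG-1103P, while Vv02s0025g04300 was down to 5.72 ± 0.111% from 16.4 ± 0.475%. The sum of the chromosome 4 genes was 173 ± 8.79 FPKM in GAG-1103P, 149 ± 14.4 in GAG-3309C, 139 ± 5.76 in GAG-17-37, 124 ± 3.78 in GAG-KOB and 26.4 ± 0.893 in GAG-41B.

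**Figure D3:**
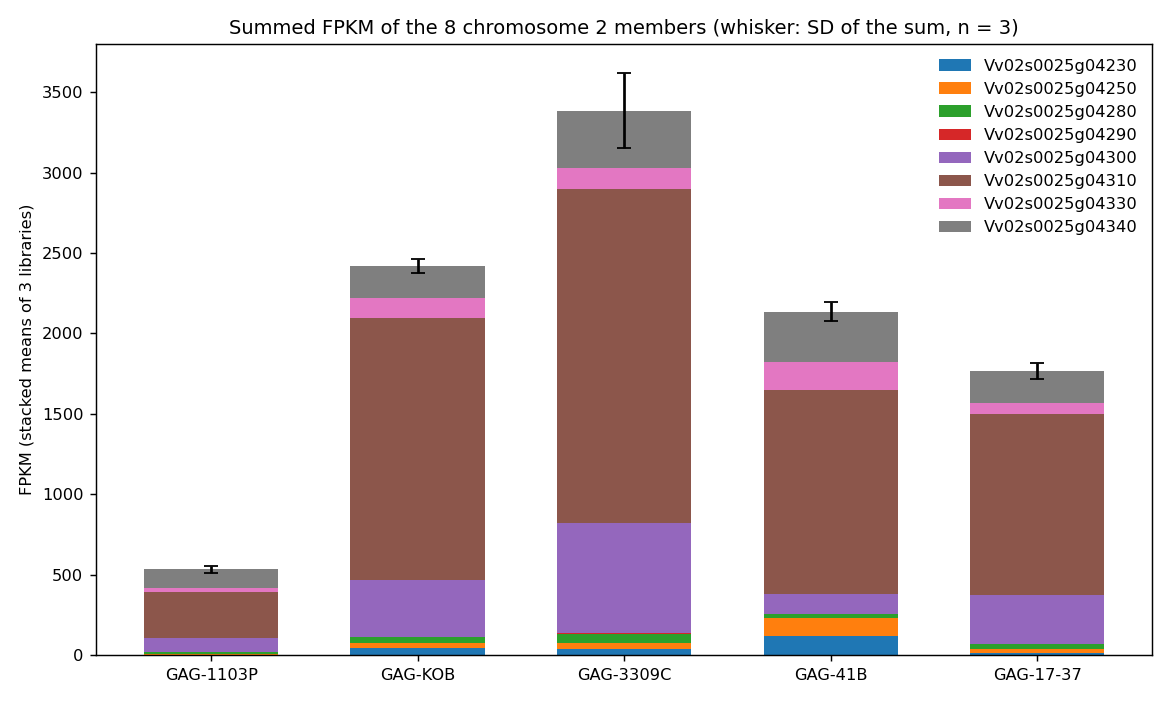
Summed FPKM of the 8 listed chromosome 2 genes in each graft combination, as stacked means of 3 libraries on an axis from 0, with whiskers for the SD of the sum. The sum goes from 532 FPKM in GAG-1103P to 3386 in GAG-3309C, most of it from Vv02s0025g04310, and the layers of Vv02s0025g04230 and Vv02s0025g04250 are widest in GAG-41B.

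The listed chromosome 2 genes lie in a run of 12 rows by identifier, of which 4 are not on the list. Of these 4, the osmotin Vv02s0025g04260 and the thaumatin Vv02s0025g04320, are annotated as members of the family too. Vv02s0025g04260 had log2 differences from GAG-1103P of 4.25 in GAG-41B, 2.59 in GAG-3309C, 2.28 in GAG-KOB and 1.96 in GAG-17-37, and its profile was the nearest to that of the osmotin Vv02s0025g04250 among the family, at a root mean square distance of 0.27 between centred log2 values over 15 libraries. The FPKM of Vv02s0025g04250 was on average between 1.71 and 2.12 times that of Vv02s0025g04260 in the 5 combinations. Vv02s0025g04320 differed by 2.64, 0.99, 1.69 and 0.64 in the same order. The other 2 rows, Vv02s0025g04240 and Vv02s0025g04270, were listed at 0 in all 15 libraries and in 13 of them. Copies of one gene family can share reads, and how the authors' quantification divided such reads between them was not tested, so that the split of a level between neighbouring copies is uncertain.

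Of 8 rows flanking this run, 7 were tested, and their median log2 difference from GAG-1103P was 0.12 in GAG-41B, -0.012 in GAG-3309C, 0.085 in GAG-KOB and -0.061 in GAG-17-37. In GAG-41B the median was 0.081 for the 3 rows before the run and 0.74 for the 4 rows after it, of which 3 were called higher. Within the run, the median of the 10 rows tested was 2.40, 2.58, 2.15 and 1.68, respectively. These rows were listed with their differences known, or annotated from a table that the study selected on these libraries. Their gap from the flanking rows is therefore a description only. Among the flanking rows, 3 were called higher in GAG-41B, 1 higher and 2 lower in GAG-3309C, 1 higher in GAG-KOB and 0 in GAG-17-37. Of all genes tested, 34.4%, 22.0%, 26.9% and 18.6% were called higher in the same order, and 34.4%, 21.1%, 25.7% and 15.6% lower. Vv02s0025g04380 and Vv02s0025g04390, chosen after their values were seen, were the flanking rows with the largest differences in GAG-41B, at 1.31 and 1.19. Around the chromosome 4 pair, the 7 neighbouring rows from Vv04s0023g03510 to Vv04s0023g03590 had differences from -1.14 to 1.08 in GAG-41B. Of these rows, 2 were called higher and 3 lower, with 34.4% of all genes tested called in each direction. SCUTL1 and Vv04s0023g03550, which were listed with their values known, were below the range of these rows.

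**Figure D4:**
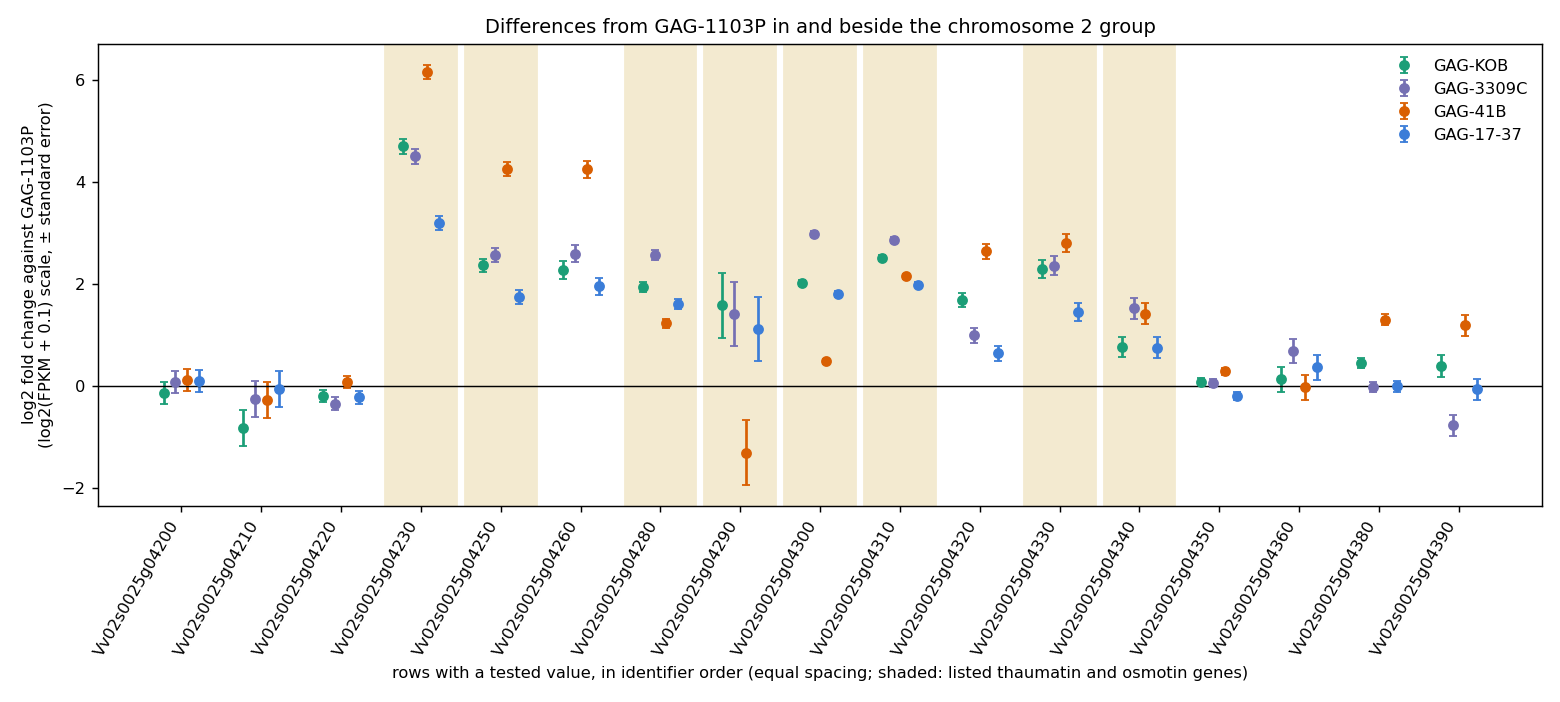
Log2 difference from GAG-1103P, on the log2(FPKM + 0.1) scale with its standard error, for the tested rows in identifier order from Vv02s0025g04200 to Vv02s0025g04390, spaced evenly, with the listed genes shaded and a colour for each of the 4 other combinations. The rows outside the run lie between -0.82 and 1.31, and within it the 2 unshaded rows, Vv02s0025g04260 and Vv02s0025g04320, lie above 0 like their shaded neighbours.

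Another gene of the family that is not on the list, Vv18s0001g11930 (the thaumatin SCUTL2), was between 0.0859 and 1.44 FPKM over the 15 libraries. Its log2 difference from GAG-1103P was 2.19 in GAG-41B and 1.17 in GAG-KOB, both called, and 0.00 in GAG-3309C and 0.60 in GAG-17-37, neither called. In GAG-41B, SCUTL2 and SCUTL1 thus lay on opposite sides of GAG-1103P.

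The other PR families were counted in the same fit. Their annotations are from a table that the study selected on these libraries, so that their direction is not independent evidence either. Against GAG-1103P, 34.4% of all genes tested were called higher and 34.4% lower in GAG-41B, and 22.0% and 21.1% in GAG-3309C. These shares were 26.9% and 25.7% in GAG-KOB and 18.6% and 15.6% in GAG-17-37. All 3 PR1 genes, small secreted proteins used as markers of the salicylic acid response, were called higher in each of the 4 combinations than in GAG-1103P, with median log2 differences of 4.28 in GAG-41B, 3.10 in GAG-3309C, 3.43 in GAG-KOB and 2.55 in GAG-17-37. All 5 PR10 genes, cytoplasmic ribonuclease-like proteins, were called higher in each, with medians of 2.39, 2.76, 2.17 and 2.49 in the same order. The PR10 gene with the highest mean, Vv05s0077g01570, was between 1122 and 8023 FPKM, with a mean of 4824 FPKM over the 15 libraries against 1278 FPKM for Vv02s0025g04310. Of 16 chitinases, 15 were called higher in GAG-41B, 15 in GAG-KOB, 14 in GAG-17-37 and 11 in GAG-3309C, with 1 called lower in each comparison. Of 9 beta-1,3-glucanases, 9 were called higher in GAG-41B, 6 in GAG-3309C, 5 in GAG-KOB and 7 in GAG-17-37, and 0 were called lower. The beta-1,3-glucanase with the highest mean, Vv06s0061g00120, was the last of the 3 genes nearest in profile to the thaumatin Vv02s0025g04300, at a distance of 0.37. Vv16s0050g01680 (0.31) and Vv13s0019g03930 (0.36) were nearer.

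PR5K receptor kinases, known from Arabidopsis, carry a thaumatin-like domain outside the cell joined to a protein kinase inside it. Of 4 genes with this annotation, 3 were called higher in each of the 4 combinations than in GAG-1103P. Between 18.6% and 34.4% of all genes tested were called higher in these comparisons. The fourth, Vv01s0011g04300, had the highest mean level of the 4. It was at -2.16 in GAG-41B and at -0.49 in GAG-KOB on the log2 scale, both called lower. Of all genes tested, 34.4% were called lower in GAG-41B and 25.7% in GAG-KOB. Like the 2 chromosome 4 thaumatins, this receptor kinase was thus lowest in GAG-41B, between -1.66 and -2.27 against the 3 combinations other than GAG-1103P.

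The genes nearest in profile were taken by the root mean square distance of centred log2(FPKM + 0.1) over the 15 libraries, over 17843 candidate genes whose mean level was 1 FPKM or more. For Vv02s0025g04310 they were an S-receptor kinase (Vv05s0020g03290, distance 0.24), a lectin protein kinase (Vv18s0041g01160, 0.25) and a UPF0497 membrane protein (Vv13s0019g01390, 0.26). For Vv02s0025g04230 they were a UDP-glucose flavonoid glucosyltransferase (Vv03s0017g02120, 0.40), the unannotated Vv01s0011g02390 (0.47) and a dirigent protein (Vv06s0004g01010, 0.47). These distances were larger than those of the other 3 members given here. The log2 values were centred but not scaled, so that a wide range of a gene tends to enlarge its distances. For the osmotin Vv02s0025g04250 they were a CLAVATA1 receptor kinase (Vv04s0008g00370, 0.24), a homeobox-leucine zipper protein (Vv08s0007g06670, 0.25) and a coatomer subunit beta (Vv09s0002g04720, 0.27). For SCUTL1 they were a pentatricopeptide repeat protein (Vv10s0116g00030, 0.17), a scarecrow-like protein (Vv04s0023g01660, 0.19) and a serine hydrolase (Vv04s0008g05380, 0.19). Among the listed genes, the nearest pair was the osmotin Vv02s0025g04280 and the thaumatin Vv02s0025g04310, at 0.32, while the adjacent Vv02s0025g04300 and Vv02s0025g04310 were at 0.65 and the chromosome 4 pair at 0.51.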

How the data were processed

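RNA sequencing of leaves gave 1 table of FPKM values with 15 columns, each matched to a library by its name, and 0 columns were left out. Per the labels and the methods of the study, polyA libraries were made with a kit that does not mark strand (TruSeq RNA v2), and overlapping genes on opposite strands cannot be told apart. The authors aligned reads to the PN40024 grapevine genome and computed the deposited FPKM with Cufflinks, scaled between libraries. The submitters' processing notes name CASAVA 1.8.2, TopHat2 2.0.14, Bowtie2 2.2.4, Cufflinks 2.2.0 and DESeq 1.6.3. Read counts were not used here, so that no count model was fitted.

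With limma 3.58.1 in R 4.3.3, log2(FPKM + 0.1) of all 15 libraries was modelled by one mean per combination, with 10 residual degrees of freedom and a variance trend over expression levels. The 21364 genes averaging 0.1 FPKM or more entered. Tests were two-sided and adjusted by Benjamini-Hochberg over these genes in each of the 10 comparisons, with a limit of 0.05. Fold changes on this scale understate the change of low genes. Ratios between combinations are ratios of mean FPKM. With 3 libraries against 3, a permutation test cannot go below 0.1 for a single gene. The fit was tested on simulated data. Libraries are pools of leaves from different plants of 1 block, and the p-values behind the calls measure the spread between such pools.

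The members and gene lists were chosen with earlier results of these data known. Named genes are the 10 listed ones, the rows within their run on chromosome 2 and beside the pair on chromosome 4. Also named are the 3 other genes annotated as thaumatin or osmotin and the gene with the highest mean of a PR list. The 3 genes nearest in profile are named for 4 members, and for Vv02s0025g04300 because a named PR gene was among them. Other gene names could not be added, since 0 of the 10 identifiers matched the RefSeq gene table, and sequences were not used here. Alternatives were the value added before the log2, the filter, the scaling of libraries, a replicate block, no variance trend, a fit of 2 combinations, a stricter limit, replicates B and C only and the leaving out of each library. Summaries and plots used Python 3.11.15, pandas 2.3.3, numpy 2.4.6 and matplotlib 3.10.9.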

Additional observations from a re-analysis of the deposited data

How the results depend on the processing

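Of 100 differences (10 genes in 10 comparisons), 68 kept their direction and call under each alternative run, and of the 40 against GAG-1103P 9 changed call under at least 1 alternative while none of the 40 changed direction. The letters A, B and C did not pair the libraries as a whole, and 5 of 15 libraries correlated best with their own letter. Deviations from the combination means correlated between -0.002 and 0.14 among A libraries, -0.05 and 0.04 among B, and -0.04 and 0.03 among C. For single genes library A was the highest in 5 of 5 combinations, as for Vv02s0025g04330 and Vv02s0025g04340. A shift shared by the A libraries was not tested. With the letter as a replicate block, 9 genes instead of 8 were called between GAG-KOB and GAG-1103P, and the counts of the other 9 comparisons were as without it. With each library left out in turn, 9 to 10 genes were called for GAG-41B, 8 to 9 for GAG-3309C and for GAG-KOB, and 9 for GAG-17-37 against GAG-1103P. At a limit of 0.005, 6 instead of 9 were called for GAG-17-37, without Vv02s0025g04340 and both chromosome 4 genes, and 7 instead of 8 for GAG-KOB, without Vv02s0025g04340. Between GAG-KOB and GAG-17-37, 7 genes were called, but 4 with replicates B and C only and 4 at a limit of 0.005. Between GAG-3309C and GAG-17-37, 8 were called, but 5 in a fit of these 2 combinations only. In the main fit, 68.8%, 43.1%, 52.6% and 34.3% of all genes tested were called for GAG-41B, GAG-3309C, GAG-KOB and GAG-17-37 against GAG-1103P. The share was 33.3% between GAG-KOB and GAG-17-37 and 16.9% between GAG-3309C and GAG-17-37. Shares under the alternatives were not computed, so that a change in these counts cannot be told from a general change in calls. With the same total in each library, the chromosome 2 sum was 561 FPKM in GAG-1103P, 1957 in GAG-17-37, 1703 in GAG-41B and 3776 in GAG-3309C, and the chromosome 4 sum 182, 154, 21.1 and 166 FPKM. With the same median, the chromosome 2 sum was 2228 FPKM in GAG-41B and 1712 in GAG-17-37, and the chromosome 4 sum 27.6 in GAG-41B.

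Differences turned direction as follows. Vv02s0025g04330 between GAG-41B and GAG-3309C was -0.047 with the same total. Vv02s0025g04310 between GAG-41B and GAG-17-37 was -0.30 with the same total and -0.46 after quantile normalization. Vv02s0025g04340 between GAG-41B and GAG-3309C was 0.17 with replicates B and C only and 0.23 without library A of GAG-3309C (-0.29 to 0.23 over all libraries left out in turn). Vv02s0025g04340 between GAG-KOB and GAG-17-37 was -0.13 with the same total, -0.12 after quantile normalization and from -0.041 to 0.074 with libraries left out, below 0 without A of GAG-KOB or B of GAG-17-37. Vv02s0025g04290 between GAG-KOB and GAG-3309C was -0.38 with replicates B and C only, and from -0.13 to 0.68 with libraries left out, below 0 without A or B of GAG-KOB or A of GAG-3309C. Vv02s0025g04330 between these combinations was 0.021 with replicates B and C only, and from -0.19 to 0.11 with libraries left out, above 0 without C of GAG-KOB or A of GAG-3309C. The cause was not tested.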

Other observations

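Libraries with the letter A were the highest of their combination in 5 of 5 combinations for Vv02s0025g04330, Vv02s0025g04340 and the unlisted Vv02s0025g04200, which was chosen after its values were seen. For Vv02s0025g04200 the difference from the mean of B and C was between 0.44 and 0.58 on the log2 scale. The main thaumatin Vv02s0025g04310 had library A highest in 1 of 5 combinations, with differences from -0.07 to 0.04.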
